A study of Homo sapiens with 8 samples.

Results

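The genes described here serve protein folding in the endoplasmic reticulum (ER) and the unfolded protein response, the signalling system that adjusts it. The list of 48 genes was compiled from known functions: stress sensors and their regulators, chaperones, the glycoprotein folding cycle, disulfide isomerases and oxidases, the translocon, and ER-associated degradation. Of these, 47 were measured among the 17546 genes of the table. The transcription factor gene ATF6B was not analysed here. RNA came from the human embryonic stem cell line H1 after lentiviral transduction with a GFP-marked vector. It carried either a negative control shRNA (4 libraries) or an shRNA against NAT10 (4 libraries). NAT10 is the enzyme that places N4-acetylcytidine on RNA. Cells of both groups were cultured for 48 h, enriched for GFP and then kept under 0.5 ug/ml puromycin during expansion, and neither the number of shRNA sequences nor a rescue group is given in the sources used here. The comparison asked which transcripts differ between cells given the NAT10 shRNA and cells given the control shRNA.

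Proteins that enter the secretory pathway pass through the SEC61 channel into the ER, where chaperones of the HSP70 and HSP90 families, the lectins calnexin and calreticulin, and disulfide isomerases fold them. Proteins that fail to fold are moved back to the cytosol and degraded. When unfolded proteins accumulate, the sensors IRE1, ATF6 and PERK respond: IRE1 splices XBP1 mRNA, ATF6 is cut by Golgi proteases to release a transcription factor, and PERK phosphorylates a translation initiation factor, which raises ATF4. XBP1 and ATF6 then raise transcription of chaperone, translocon and degradation genes. Counts per gene do not separate spliced from unspliced XBP1 mRNA, and protein activity was not measured.

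Many promoters of this pathway carry the ER stress response element (ERSE), which is CCAAT, then 9 bases of any kind, then CCACG, and which is bound by ATF6 together with the CCAAT-binding factor NF-Y. Promoters from 250 bases before to 50 after the transcription start were matched by symbol for 45 of the 47 members in the RefSeq table on GRCh38.p14, and both strands were searched. ERSE was found in 8 of these 45 genes (17.8%) and in 25 of all 27305 genes of that table (0.0916%). The element was defined on promoters of ER chaperone genes, some of which are members, so this share is not independent of how the members were chosen. The matches are shown because members that share the element differed in their change; capitals mark its fixed bases, and each is written 5′ to 3′ in the orientation of the element.
HSPA5: CCAATcggcggcctCCACG
CANX: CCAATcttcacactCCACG
CRELD2: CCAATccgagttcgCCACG
CALR: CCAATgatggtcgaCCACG
XBP1: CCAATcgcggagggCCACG
PDIA6: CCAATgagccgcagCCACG
HSP90B1, distal: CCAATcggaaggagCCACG
HSP90B1, proximal: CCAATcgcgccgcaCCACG
ERO1B: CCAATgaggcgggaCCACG
Of these 8 genes, HSPA5, CANX, CRELD2, CALR, XBP1 and PDIA6 rose in the knockdown group, HSP90B1 did not pass the test and ERO1B fell. The 8 genes had a median log2 fold change of 0.40. The 37 members whose promoter held no match had a median of 0.15, and 21 of them rose and 7 fell. Of all measured genes 32.3% rose and 32.4% fell. No test was made of that difference.

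Whole promoters are printed for the member with the largest rise, for a member with 2 elements and no called change, and for the member with the lowest fold change. Each runs 5′ to 3′ on the gene's own strand with the fixed bases of ERSE in capitals; an element on the opposite strand reads as its reverse complement. They lie at chr9:125241294-125241593 (minus strand), chr12:103930160-103930459 (plus strand) and chr1:236281909-236282208 (minus strand) on GRCh38.p14.
HSPA5: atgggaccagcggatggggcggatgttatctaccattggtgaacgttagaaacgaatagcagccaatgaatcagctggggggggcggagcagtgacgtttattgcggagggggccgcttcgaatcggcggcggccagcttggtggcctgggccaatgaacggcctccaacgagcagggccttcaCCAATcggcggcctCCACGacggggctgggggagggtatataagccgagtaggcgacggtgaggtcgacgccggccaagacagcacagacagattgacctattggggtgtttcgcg
HSP90B1: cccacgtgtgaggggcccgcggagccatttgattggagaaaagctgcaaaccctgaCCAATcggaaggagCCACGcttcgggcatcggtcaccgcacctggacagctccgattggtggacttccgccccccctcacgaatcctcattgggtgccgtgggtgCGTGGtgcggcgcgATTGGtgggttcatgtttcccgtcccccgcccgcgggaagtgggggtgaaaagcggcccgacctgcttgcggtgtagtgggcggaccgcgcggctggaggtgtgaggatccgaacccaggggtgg
ERO1B: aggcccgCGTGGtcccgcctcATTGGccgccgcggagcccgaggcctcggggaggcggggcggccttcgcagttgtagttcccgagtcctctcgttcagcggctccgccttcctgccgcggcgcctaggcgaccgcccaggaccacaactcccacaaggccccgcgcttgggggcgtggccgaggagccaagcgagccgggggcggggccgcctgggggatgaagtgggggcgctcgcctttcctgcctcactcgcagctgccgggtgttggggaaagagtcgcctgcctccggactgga
Counted from the start, the element spanned positions -66 to -48 in HSPA5, -194 to -176 and -89 to -71 in HSP90B1, and -243 to -225 in ERO1B. The shorter element ERSE-II, which is ATTGG, 1 base of any kind and CCACG, was found in 3 members, all of which rose: ATTGGgCCACG in HERPUD1, ATTGGtCCACG in SDF2L1 and ATTGGaCCACG at 2 places in HYOU1. Of all measured genes 32.3% rose, and the call of SDF2L1 was lost with DESeq2 and with library totals. ERSE-II was present in 19 of the 27305 genes (0.0696%). The XBP1-type element TGACGTGG was found in HYOU1, where it overlaps an ERSE-II, and in DNAJC10, SEC62, SSR3 and SSR4, and in 253 of the 27305 genes (0.927%). A match is a run of letters and not evidence of binding in these cells.

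Values below are normalized counts, which are reads divided by the authors' size factor for each library. Libraries held 15574631 to 16305014 reads. NAT10 itself, on chromosome 11, went from 2178 ± 98.8 normalized counts to 1627 ± 25.5 (SD, n = 4 each). The mean was 25.3% lower and the groups were apart (two-sided exact permutation p = 0.0286, the smallest that 4 against 4 can give). Genes were called at a limma Benjamini-Hochberg adjusted p under 0.05. Of all genes 64.7% were called, 32.3% as higher and 32.4% as lower, so a call alone sets no gene apart. With library totals in place of size factors, the median log2 fold change of all genes moved from 0.0013 to -0.11, and calls to 23.2% higher and 41.9% lower. All 15 listed pluripotency markers were measured and 11 rose, or 10 higher and 3 lower with library totals. Their control levels ran from 24.0 normalized counts for POU5F1 to 36393. Why POU5F1 was counted so low was not tested, so its count is not taken as its level. Of 13 fibroblast and mesenchymal markers, 10 were measured, 7 rose and 1 fell, or 6 higher and 2 lower with library totals. Their summed share of the signal was 0.168% to 0.173% in control libraries and 0.205% to 0.221% in knockdown libraries. The highest gene of the list had 12941 normalized counts in controls, so it weighs heavily in this sum. COL3A1, DCN and LUM were not among the measured genes. Of 12 endoderm and secretory markers only AFP and CXCR4 were measured. Both rose, but only 1 was called higher with library totals, and their control means were low, at 27.4 and 44.1 normalized counts. Together they made up 0.000399% to 0.000505% of the signal in control libraries and 0.00118% to 0.00131% in knockdown libraries. Of 7 regulators of secretory lineages 5 were measured, with 1 higher and 1 lower, or 1 and 2 with library totals. Their summed shares were 0.0125% to 0.0136% in controls and 0.0116% to 0.0121% in knockdown. Whether such cells have a part in the results below was not tested. In bulk RNA, a change in the share of cells of some type and a change in RNA per cell cannot be told apart. Separate cultures are not stated for the replicates, and the p-values then cover only variation among these libraries, which could be technical.

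RNA of the chaperone BiP (HSPA5), its cofactor DNAJB11, both lectins (CANX, CALR) and the degradation factor DERL2 was higher in the NAT10 knockdown group, while RNA of the sensors IRE1 (ERN1) and ATF6 was lower. Of the 47 members, 29 rose and 8 fell, and the remaining 10 missed the threshold (limma on log2(value + 1), adjusted over all genes), where the background is 32.3% higher and 32.4% lower. The median log2 fold change of the members was 0.17, and single values ran from -0.71 for ERO1B to 0.80 for HSPA5. In 25 members every knockdown library lay above every control library (background 28.4%), and in 7 every knockdown library lay below (background 28.3%, or 56.7% in either direction). Among the 11690 genes of at least 5 CPM, 39.8% rose and 32.7% fell, and 4165 lay wholly above and 3399 wholly below. By edgeR on recovered reads 29 members were higher and 9 lower (background 31.9% and 33.3%). Most changes were small: 5 members rose at least 1.5-fold, where 9.29% of all genes did, a share near the background. The members together made up 0.750% ± 0.00430 of all signal in the control libraries and 0.847% ± 0.00272 in the knockdown libraries (SD, n = 4 each). With library totals as scaling, 20 members rose and 11 fell (background 23.2% and 41.9%), with a median of 0.06. That scaling moved the log2 fold change of every member by -0.11, so small rises shrank most in proportion. All 20 of these were also among the 29. The 9 calls lost were those of MBTPS1, SDF2L1, UGGT1, PDIA3, PDIA6, OS9, SEC61G, SSR2 and SSR4, and HSP90B1, SEC63 and SSR1 then counted as lower.

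**Figure D1:**
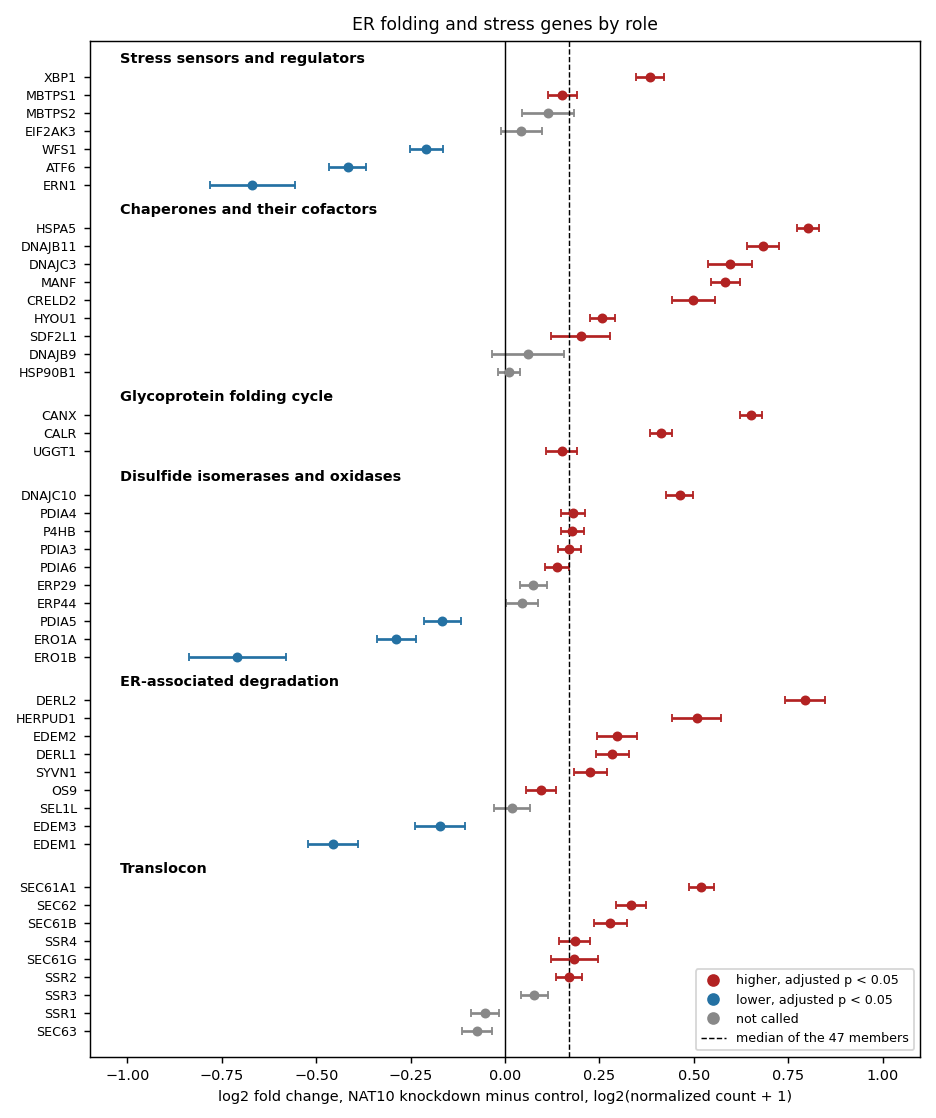
Log2 fold change of the 47 measured members (x axis, NAT10 knockdown minus control on log2(normalized count + 1)), sorted within each role; bars are the standard error of the limma fit, colours the call at an adjusted p of 0.05, and the dashed line the median of 0.17. HSPA5 at 0.80 and DERL2 at 0.79 lie furthest right, and ERO1B at -0.71 and ERN1 at -0.67 furthest left.

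Among the stress sensors and their regulators, 2 of 7 measured members rose and 3 fell, with a median of 0.04. These are 28.6% and 42.9%, beside 32.3% and 32.4% of all genes. ERN1, which encodes the kinase and RNase IRE1 (chromosome 17, 64039142 to 64130819), stood at 133, 131, 132 and 139 normalized counts in the controls, in the order of their replicate numbers, and at 64.9, 92.9, 80.3 and 102 after knockdown, in the same order. The groups did not overlap, the control libraries lay close together and the knockdown libraries were spread more widely. ERN1 had a log2 fold change of -0.67 (standard error 0.113, adjusted p = 1.07e-06). ATF6, the membrane-bound transcription factor (chromosome 1, 161766294 to 161964070), had 700.0, 738, 756 and 712 counts in controls and 523, 569.7, 557 and 527 in knockdown. Every knockdown library was below every control library, with a log2 fold change of -0.42 (standard error 0.0501, adjusted p = 3.68e-10). EIF2AK3, which encodes the kinase PERK, had 507, 445, 456 and 469 counts in controls and 487, 482, 485 and 478 in knockdown. Here the knockdown libraries lay inside the control range, and the log2 fold change of 0.04 did not pass (adjusted p = 0.504). It was 0.081 without control replicate 1 and 0.019 without control replicate 2.

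XBP1, the transcription factor whose mRNA IRE1 splices (chromosome 22, 28794555 to 28800597), rose. It had 2161, 1957, 2043 and 2131 normalized counts in controls and 2591, 2782, 2779 and 2675 in knockdown. All knockdown libraries were higher, by 0.39 on the log2 scale (standard error 0.0372, adjusted p = 5.5e-13). Within each library, the ratio of XBP1 to ATF6 counts, which no scaling changes, was 2.86 ± 0.214 in controls and 4.98 ± 0.0792 in knockdown. This ratio restates the fold changes of both genes and adds no separate support. The Golgi proteases that cut ATF6 are encoded by MBTPS1 and MBTPS2. MBTPS1 rose by 0.15 on the log2 scale, but was not called with library totals, and MBTPS2 had 279 ± 10.1 and 302 ± 23.8 counts (adjusted p = 0.146; without knockdown replicate 2 it passed, at a log2 fold change of 0.17). WFS1, an ER membrane protein mutated in Wolfram syndrome, had 1004 ± 40.1 counts in controls and fell to 869 ± 21.6.

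Among chaperones and their cofactors, which held the highest median of the 6 roles, 7 of 9 rose and 0 fell (background 32.3% and 32.4%). Their median log2 fold change was 0.50, and with library totals 6 rose and 1 fell (background 23.2% and 41.9%). HSPA5, the ER HSP70 chaperone BiP that binds unfolded chains and holds the sensors inactive (chromosome 9, 125234853 to 125241330), had 7642, 7809, 7532 and 7316 counts in controls. Its knockdown libraries had 13277, 13139, 13187 and 13259. The knockdown values differed from each other by far less than from any control, and the mean was 74.5% higher (log2 fold change 0.80, standard error 0.0291, adjusted p = 2.69e-29). DNAJB11, an HSP40 cofactor of BiP, had 796, 824, 839.8 and 783 counts in controls and 1277, 1348, 1265 and 1318 in knockdown. Its groups did not overlap, with a log2 fold change of 0.68 (standard error 0.0425, adjusted p = 9.61e-20). MANF, a small secreted and ER-retained protein that binds BiP, had 1276, 1276, 1303 and 1283 counts against 1995, 1878, 1861 and 1970.5. DNAJC3, an HSP40 cofactor also known as an inhibitor of PERK, had 423, 455, 482 and 464 counts against 618, 732, 654 and 760.1. In both genes all knockdown libraries were higher, by 0.58 for MANF (standard error 0.0382) and 0.60 for DNAJC3 (standard error 0.0576) on the log2 scale. CRELD2, a cysteine-rich ER protein induced by ER stress, rose from 379 ± 17.0 to 537 ± 24.2 counts. HYOU1, the HSP110-type exchange factor of BiP, rose by 0.26 on the log2 scale.

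HSP90B1, the ER HSP90 chaperone GRP94, did not pass the test. It had 13754, 14411, 14805 and 14499.9 normalized counts in controls and 14936, 14588, 13789 and 14595 in knockdown. The groups overlapped over most of their range (log2 fold change 0.01, standard error 0.0296, adjusted p = 0.766), and with library totals the gene counted as lower, at -0.10. The ratio of HSPA5 to HSP90B1 counts within a library was 0.528 ± 0.0250 in controls and 0.914 ± 0.0296 in knockdown. Reads of HSP90B1 could be split with its processed pseudogenes: HSP90B2P was counted at 859 ± 15.1 and 877 ± 20.1 and HSP90B3P at 332 ± 33.5 and 329.7 ± 12.3, and neither changed past the threshold. DNAJB9, an HSP40 cofactor known as a sensitive XBP1 target, had 143, 123, 164 and 139.6 counts against 142, 145, 138 and 167, which overlapped (log2 fold change 0.06, standard error 0.0953, adjusted p = 0.595). The ratio of DNAJB11 to DNAJB9 was 5.75 ± 0.670 in controls and 8.83 ± 0.644 in knockdown. SDF2L1, a partner of DNAJB11, had 211 ± 15.9 and 243 ± 21.4 counts; its call at 0.20 was lost without control replicate 2 (0.15), knockdown replicate 1 (0.16) or knockdown replicate 3 (0.17).

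**Figure D2:**
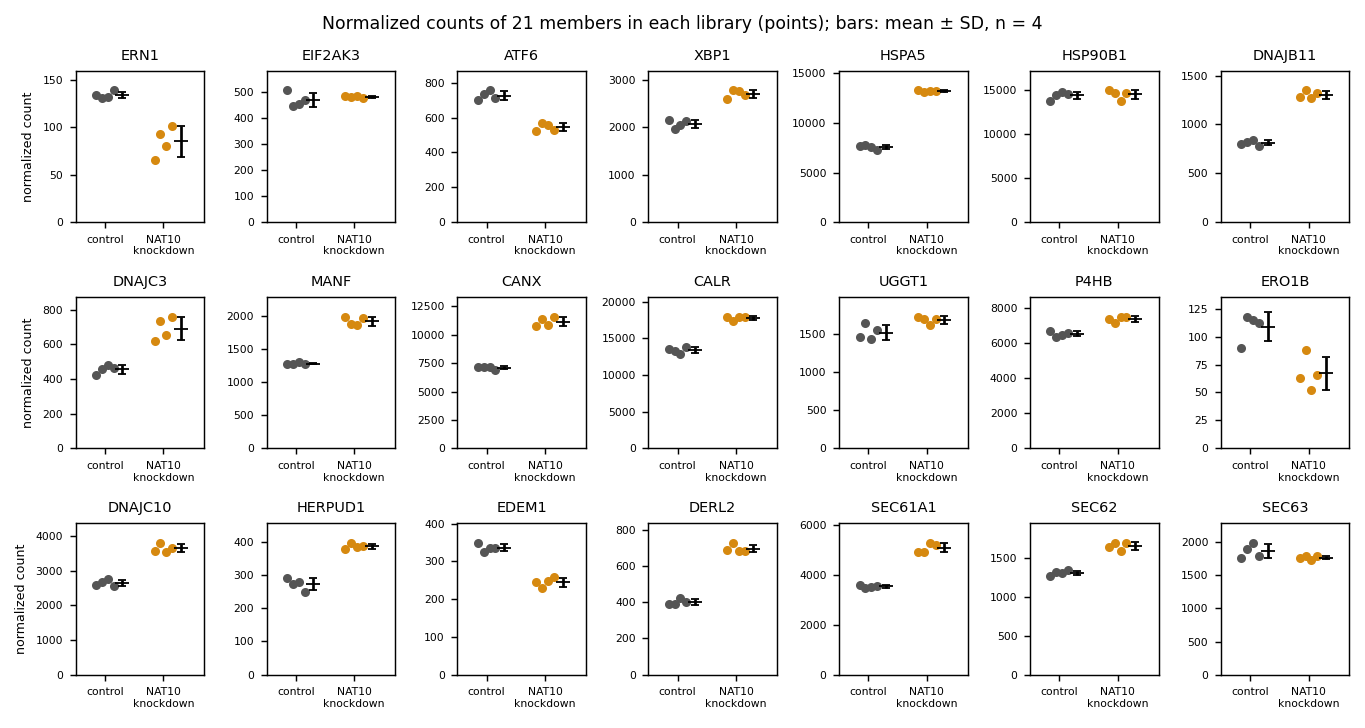
Normalized counts (y axis, from 0) of 21 members in each of the 4 control and 4 NAT10 knockdown libraries, with the mean and SD beside the points. HSPA5, DNAJB11, CANX and DERL2 have groups far apart, while HSP90B1, EIF2AK3 and SEC63 overlap.

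In the folding cycle of glycoproteins all 3 members rose (background 32.3%), with a median of 0.41, and CANX and CALR did so under both scalings. CANX, the membrane lectin calnexin (chromosome 5, 179678628 to 179730925), had 7136, 7151, 7175 and 6928 counts in controls and 10799, 11392, 10829 and 11594 in knockdown. Every knockdown library exceeded the highest control library by more than the whole control range (log2 fold change 0.65, standard error 0.0303, adjusted p = 9.08e-25). CALR, the soluble lectin calreticulin, had 13613, 13219, 12830.4 and 13771 counts against 17889.9, 17309, 17968 and 17934. The groups were apart here too, with a log2 fold change of 0.41 (standard error 0.0285, adjusted p = 5.36e-18). UGGT1, the folding sensor that adds glucose back to misfolded glycoproteins, had 1459.9, 1642, 1439 and 1552 counts against 1733, 1699, 1621 and 1699.7. Its groups overlapped slightly, and the log2 fold change of 0.15 (adjusted p = 0.0012) was 0.04 and not called with library totals.

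Disulfide isomerases and oxidases moved in both directions: 5 of 10 rose and 3 fell (background 32.3% and 32.4%), with a median of 0.11. With library totals 3 rose and 3 fell (background 23.2% and 41.9%). DNAJC10, an ER reductase that combines HSP40 and thioredoxin-like domains, had 2581, 2689.7, 2764 and 2572 counts in controls and 3583, 3810.3, 3549 and 3670.1 in knockdown. It was the largest rise of the group, without overlap (log2 fold change 0.46, standard error 0.0349, adjusted p = 1.34e-16). P4HB, the main protein disulfide isomerase and a subunit of collagen prolyl hydroxylase, had 6700.1, 6361, 6449 and 6546 counts against 7379.6, 7107, 7492 and 7495. Its groups did not overlap, but the rise was small, at 0.18 (adjusted p = 1.61e-06), or 0.069 with library totals (adjusted p = 0.0409). PDIA4 and PDIA3, the isomerase that works with calnexin and calreticulin, rose by 0.18 and 0.17, and PDIA6 by 0.14. With library totals PDIA4 was at 0.071 (adjusted p = 0.0389). Part of the PDIA3 reads could lie in its transcribed pseudogene PDIA3P1, which was counted at 14.7% of the PDIA3 level in controls and rose by 0.16.

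The oxidases that recharge these isomerases fell. ERO1B (chromosome 1, 236215555 to 236281985), the ERO1 paralog best known from insulin-producing cells, had 89.9, 118, 115 and 113 counts in controls and 62.8, 87.8, 51.8 and 65.6 in knockdown. The highest knockdown library lay just under the lowest control library, and the log2 fold change was -0.71 (standard error 0.129, adjusted p = 4.86e-06). ERO1A, the widely expressed oxidase, fell from 679.8 ± 27.3 to 557 ± 31.3 counts without overlap (log2 fold change -0.29, adjusted p = 3.28e-06). PDIA5 fell by 0.17 on the log2 scale. ERP29, a chaperone with an inactive thioredoxin fold, had 2570.5 ± 101 and 2707 ± 35.4 counts (adjusted p = 0.0581), and passed at 0.10 without control replicate 4. ERP44, which retrieves escaped ERO1 proteins from the early secretory pathway, had 1322 ± 68.0 and 1363 ± 56.2 counts (adjusted p = 0.353).

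In ER-associated degradation 6 of 9 members rose and 2 fell (background 32.3% and 32.4%), with a median of 0.23. With library totals 5 rose and 2 fell (background 23.2% and 41.9%). DERL2, a derlin of the retrotranslocation channel (chromosome 17, 5471251 to 5486811), had 389.6, 392, 424 and 399 counts in controls and 689, 728, 685 and 682 in knockdown. The gain of 73.5% was close to that of BiP and the groups were far apart (log2 fold change 0.79, standard error 0.0528, adjusted p = 1.27e-18). HERPUD1, which links the ubiquitin ligase HRD1 to derlins, had 292, 272, 279 and 247 counts against 379, 397, 383 and 389. All of its knockdown libraries were higher (log2 fold change 0.51, standard error 0.0646, adjusted p = 1.73e-09). DERL1 rose by 0.28, EDEM2 by 0.30 and SYVN1, which encodes HRD1 itself, by 0.23, while SEL1L, the scaffold of HRD1, had 699 ± 24.8 and 707 ± 17.5 counts (adjusted p = 0.76).

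EDEM1, a mannosidase-like factor that delivers glycoproteins for degradation and is known as an XBP1 target, fell. It had 349, 325, 335 and 336 counts in controls and 245, 229.7, 247 and 258 in knockdown. The groups were apart, with a log2 fold change of -0.46 (standard error 0.0667, adjusted p = 5.03e-08). The ratio of EDEM2 to EDEM1 counts within a library was 1.44, 1.56, 1.41 and 1.59 in controls and 2.53, 2.70, 2.58 and 2.32 in knockdown. EDEM3 fell by 0.17, a call lost without control replicate 3 (-0.14), knockdown replicate 1 (-0.15) or knockdown replicate 4 (-0.14). OS9, a lectin that reads trimmed glycans, rose by 0.09 with the authors' scaling; its sign turned with library totals, and the call was lost when control replicate 1 or 3 or knockdown replicate 1, 3 or 4 was left out, with values of 0.07 to 0.09.

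At the translocon 6 of 9 members rose and 0 fell (background 32.3% and 32.4%), with a median of 0.18. Only 3 rose and 2 fell with library totals (background 23.2% and 41.9%). SEC61A1, the pore-forming subunit (chromosome 3, 128051641 to 128071683), had 3607, 3479.6, 3527 and 3567 counts in controls and 4930.4, 4933, 5291 and 5186 in knockdown. It had the largest change of the group, without overlap (log2 fold change 0.52, standard error 0.0329, adjusted p = 1.88e-19). SEC62, which helps short and post-translational substrates enter, had 1277, 1319, 1312 and 1344 counts against 1639, 1699, 1587 and 1697, and rose by 0.33 (adjusted p = 1.51e-10). SEC63, the HSP40-type partner that recruits BiP to the channel, had 1769, 1906, 1995 and 1799 counts against 1769.7, 1794, 1734 and 1788. The knockdown libraries lay near or below the lowest control library (log2 fold change -0.07, adjusted p = 0.0888), and the value ran from -0.10, which passed as lower, without control replicate 1 to -0.042 without control replicate 3 (adjusted p = 0.376). The ratio of SEC61A1 to SEC63 was 1.90 ± 0.128 in controls and 2.87 ± 0.136 in knockdown. SEC61B, the beta subunit, rose by 0.28 under the authors' scaling and by 0.17 with library totals. Among the subunits of the translocon-associated protein complex, SSR2 and SSR4 rose by 0.17 and 0.18 with the authors' scaling, while SSR1 at -0.05 and SSR3 at 0.08 did not pass. SSR3 passed at 0.09 without control replicate 3 and at 0.10 without knockdown replicate 3.

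**Figure D3:**
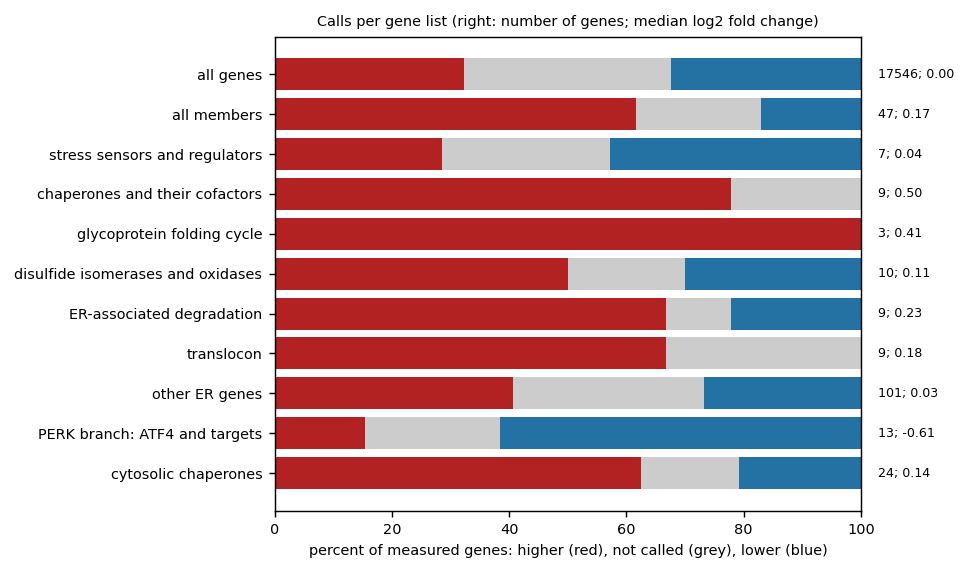
Share of measured genes that rose (red), were not called (grey) or fell (blue) in the NAT10 knockdown group, for all 17546 genes, the 47 members, their 6 roles and 3 further lists; the figures at the right are the number of genes and the median log2 fold change. Chaperones and the glycoprotein cycle hold the highest shares of rises among the roles. The list of ATF4 and its targets, labelled PERK branch, holds mostly decreases.

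Other genes of the ER that are not members moved in both directions. Of 101 measured genes of 105 listed, 41 rose and 27 fell (background 32.3% and 32.4%), with a median log2 fold change of 0.03. The 40.6% that rose lay near the 39.8% of genes of at least 5 CPM. With library totals the split was 28 and 46 (background 23.2% and 41.9%). Their summed share of the signal was 1.09% ± 0.00545 in controls and 1.05% ± 0.00596 in knockdown. Of 25 further chaperones and isomerases 10 rose and 10 fell; the membrane-bound isomerases TMX1 and TMX2 rose by 0.67 and 0.53. Of 16 genes of the signal recognition particle and signal peptidase 7 rose and 3 fell, with TRAM1, a helper of the translocon, up by 0.48 and SRP19, a protein subunit of the particle, by 0.55. Of 19 genes of oligosaccharyltransferase and glycan trimming 5 rose, MAGT1 by 0.33, and 6 fell, with the mannosidase MAN1A1 at -0.97. Of 24 further degradation genes 11 rose and 5 fell, with UBE2J1, a ubiquitin-conjugating enzyme that works with HRD1, up by 0.73 and NPLOC4, a cofactor of the extracting ATPase, up by 0.36. Of 17 genes of COPII vesicles and cargo receptors 8 rose and 3 fell. SEC31B, a minor coat subunit, went from 134 ± 11.2 to 59.6 ± 5.41 counts and the cargo receptor LMAN1 fell by 0.41 on the log2 scale.

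Most listed genes of ATF4 and its targets fell. Of 13 measured, 2 rose and 8 fell (background 32.3% and 32.4%), with a median of -0.61. EIF2AK3, which encodes PERK, did not change past the threshold. PERK activity was not measured, and whether PERK had a part in these falls was not tested. DDIT4, an inhibitor of mTORC1, fell by 2.16 on the log2 scale, with 1225 ± 13.3 counts in controls and 274 ± 25.8 in knockdown. SESN2, a stress-induced regulator of mTORC1, fell by 0.77, with 1188 ± 31.6 and 696 ± 11.7 counts. Cytosolic chaperones, which serve folding outside the ER, counted 15 higher and 5 lower of 24 measured (background 32.3% and 32.4%). Their median was 0.14, close to the 0.17 of the ER members. Whether these lists differ from the members was not tested.

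Levels between members can be compared per length of annotated exons. In controls CALR ranked at the top with 4922 ± 155 normalized counts per kb, followed by HSP90B1 with 3060.2 ± 94.2 and HSPA5 with 1938 ± 52.9. In knockdown CALR stayed at the top with 6549.5 ± 115, and HSPA5 at 3382 ± 16.3 lay above HSP90B1 at 3084 ± 104. Without division by length, HSP90B1 stayed above HSPA5 in knockdown (HSPA5 to HSP90B1 ratio 0.914 ± 0.0296). The order of this pair therefore depends on the exon lengths used. ERN1 had the lowest level of all members, 12.3 ± 0.314 counts per kb in controls and 7.81 ± 1.47 in knockdown, and ERO1B the next lowest. ATF6 ranked 34 of 47 in controls, with 92.1 ± 3.22 counts per kb, and EIF2AK3 ranked 36, with 86.3 ± 4.94. In knockdown ATF6 ranked 41, with 69.0 ± 2.88, below EIF2AK3 at rank 37, with 88.9 ± 0.708. In 26 of 46 neighbouring pairs of the control order the libraries of both genes overlapped, so only the coarse order is set by these data. The annotated exons include all known transcripts, so genes with long alternative exons are understated.

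**Figure D4:**
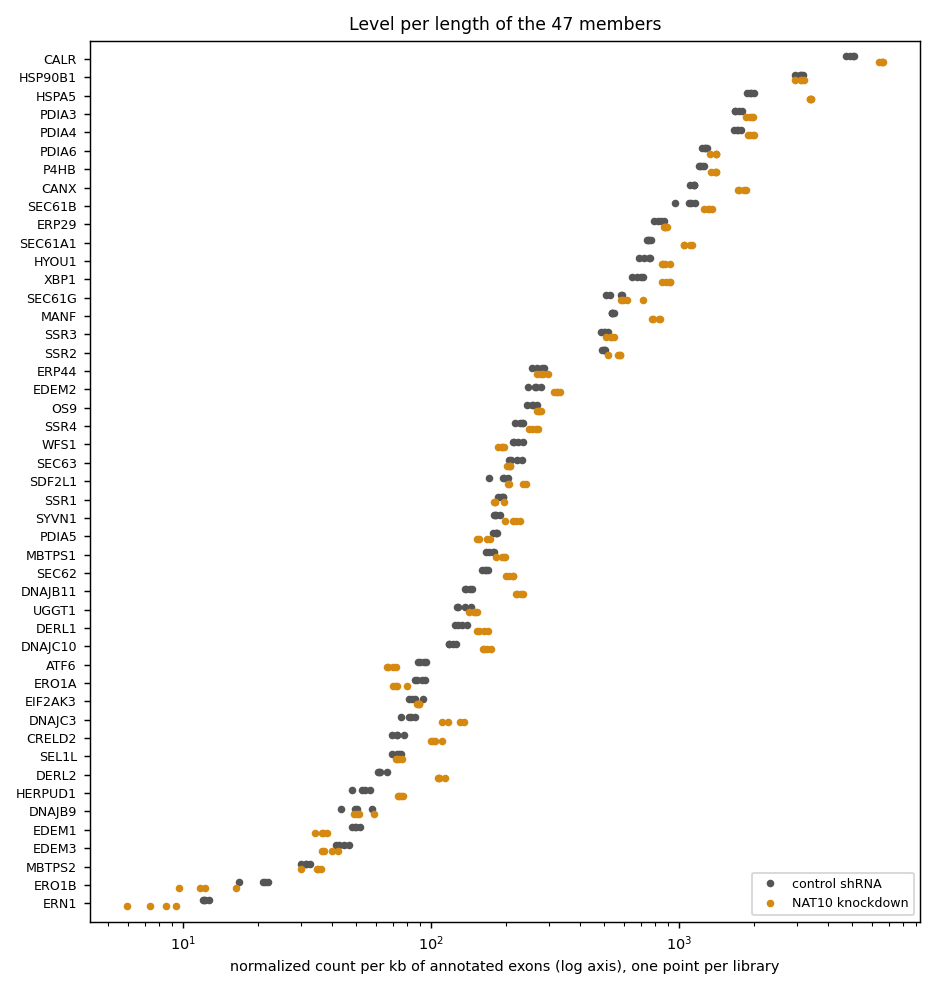
Normalized counts per kb of annotated exons (x axis, log scale) of the 47 members in each control (dark grey) and NAT10 knockdown (orange) library, 1 point each, ordered by the control mean. Levels range from 12.3 for ERN1 to 4922 for CALR in controls, and per kb HSPA5 lies above HSP90B1 only in the knockdown libraries.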

How the data were processed

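RNA of H1 cells was measured by poly(A) RNA-seq in 4 control shRNA and 4 NAT10 knockdown libraries, grouped and numbered by their titles. Per the submitters' processing notes, which give no order, the tools were DESeq2 1.26.0, featureCounts 2.0.3, HISAT2 2.2.1, fastp 0.21.1 and SAMtools 1.12, and the build was hg38; no source used here gives the annotation or strand setting. The deposited values are a signal that the authors obtained by dividing gene read counts by a size factor per library. Divided by the value of 1 read in its library, 100% of them came out whole within 1e-06, which gave the recovered reads. Genes with fewer than 4 libraries of 10 or more reads are absent from the table and could not be tested.

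Groups were compared with limma 3.58.1 (robust, with a trend) in R 4.3.3 on log2(value + 1). Its single term was the group, and p-values were adjusted by Benjamini-Hochberg over all 17546 genes with a threshold of 0.05. Fold changes on this scale understate changes of genes with few reads. A simulation of this comparison over 17546 genes recovered 29, 32, 48 and 50 of 50 genes simulated with 1.25-, 1.5-, 2- and 4-fold changes, with 8 false calls. No other genes were changed in it, whereas 64.7% were called in the data. Its recovery and false calls therefore need not hold for the data. Alternatives were edgeR 4.0.16 (17410 genes kept) and DESeq2 1.42.0 on the recovered reads, other scalings, pseudocounts and filters, a replicate block, and each library left out. Same-numbered libraries did not deviate together (correlations from -0.13 to -0.01), so the numbers were not taken as pairs. Pairs of libraries of one group had a chi-square per gene of 1.79 to 2.52, and pairs across groups 28.1 to 29.1. Each library was counted as its own sample. These values cannot show whether the libraries came from separate cultures. In the library with the fewest reads, 0 counts leave room for 0.193 CPM (3 counts, counting error only).

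The members and lists were chosen with earlier results of these data known. Libraries are given in full for 21 members: HSPA5, XBP1, ATF6, ERN1 and EIF2AK3, the 2 members of each role with the smallest adjusted p and the member with the lowest fold change, and members called with a log2 change of at least 0.5. DNAJB9 is also given in full, chosen after its values were seen. For each other list of ER genes and for the list of ATF4 and its targets, the 2 genes with the smallest adjusted p are named. Other genes named with their values were chosen after those values were seen. The pairs of genes given as ratios were not set by these rules. Each ratio restates the fold changes of its genes and adds no separate support. Ensembl gene IDs were matched to symbols (17532 of 17546); exon lengths and coordinates came from GENCODE release 29 on GRCh38, the build called hg38. Promoters came from RefSeq on GRCh38.p14, matched by symbol. Figures were drawn with matplotlib 3.10.9.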

Additional observations from a re-analysis of the deposited data

Results flagged for a closer look

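In each group of 4 libraries, a library counted as standing apart when its gap to the nearest other library, as a share of the group's range, exceeded Dixon's critical value. Of 96 groups examined (47 members and NAT10), 5 met this rule, and chance alone gives about 1 in 20. In knockdown replicate 2, CALR had 17309 normalized counts and PDIA6 had 5484, each the lowest of its group. The same library had the highest counts of its group for DERL2 (728) and SSR1 (2229.8). In control replicate 4, CANX had 6928, the lowest of the controls. Without knockdown replicate 2 no call of CALR, PDIA6, DERL2 or SSR1 changed. The members then counted 30 higher and 8 lower (background 31.3% and 31.3%). CANX kept its call in all 19 alternatives, which include leaving out control replicate 4.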

How the results depend on the processing

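Over 19 alternatives, 825 of 893 fold changes of members kept their direction and their side of the threshold, 47 kept the direction and lost the call, 9 gained it and 12 changed sign; 17 members kept both in every alternative. The members counted 27 to 30 higher and 7 to 9 lower when each library was left out. The background was then 31.1% to 31.3% higher and 30.9% to 31.6% lower. The members counted 29 and 9 with edgeR (background 31.9% and 33.3%). With DESeq2 they counted 27 and 7 (background 29.5% and 29.3%), where SDF2L1, EDEM3 and OS9 were lost. The change of NAT10, run under the same alternatives as a choice made after seeing the data, stayed between -0.53 and -0.40. With library totals the members' median was 0.0613 and 46 other ER genes were lower (background 41.9%). Signs then changed for EIF2AK3 (-0.0651), HSP90B1 (-0.0979), DNAJB9 (-0.0476), ERP29 (-0.0335), ERP44 (-0.0638), SEL1L (-0.0907), OS9 (-0.0142) and SSR3 (-0.0319); the median of all genes moved by a like amount, by construction of the scaling. Leaving out 1 library also turned the sign of HSP90B1 (-0.00995 to 0.0341; without control replicate 1 or knockdown replicate 1), DNAJB9 (-0.00714 to 0.130; without control replicate 2) and SEL1L (-0.00581 to 0.0342; without control replicate 3); the cause was not tested. Calls that also needed a log2 change of at least 0.32 numbered 3342 higher among all genes (19.0%, with 23.0% lower). They numbered 13 higher and 4 lower among members, and 18 higher and 9 lower among the other ER genes, since fewer small changes pass. With the replicate block the members counted 28 higher and 8 lower (background 31.9% and 32.1%), as only OS9 was lost. The numbers pair no samples, so this is no sign of a weaker effect. No other alternative moved a count by over 1.5 times. Depth limits ERN1, ERO1B and DNAJB9 most, the members with the fewest reads.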

Other observations

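ERSE also stood in the promoters of 8 measured genes that are not members. Of these 8, 4 rose and 2 fell (background 32.3% and 32.4%), with a median log2 fold change of 0.11. SERP1, which stabilizes proteins at the translocon, rose by 0.20, and FICD, which modifies BiP, had a log2 fold change of 0.10 that did not pass (adjusted p = 0.37). ZNF17 rose by 0.86 and SYNPO changed by -1.44, the extremes of these 8. ERSE-II stood in 11 such genes, of which 5 rose and 5 fell (background 32.3% and 32.4%), with a median of 0.02. These genes were chosen by the letters of their promoters, after the members' values were known, and no test was made.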
